A study of Mus musculus with 12 samples.

Results

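A set of 10 genes of activated and disease-associated microglia, the resident macrophages of the brain, was followed through hippocampal mRNA-seq of mice with and without knockdown of Hp1bp3, which encodes a nuclear protein with linker histone domains that binds compacted chromatin. The genes were taken by symbol from the table of expected counts, and all 10 of 10 were present among its 22236 genes and passed the filter on low counts that left 15853 genes for testing. The genes were Trem2, Tyrobp, Apoe, Axl, Itgax, Cd68, Cst7, Lgals3, Spp1 and Lpl. The mice, males of 3 to 5 months, were of the strain C57BL/6J, here B6, or DBA/2J, here D2. They received virus in the hippocampus on both sides, and the tissue was taken at least 6 weeks later. The knockdown groups (B6 KD and D2 KD) were given AAV9-shRNA-Hp1bp3, an adeno-associated virus that encodes a hairpin against Hp1bp3, and the control groups (B6 Ctrl and D2 Ctrl) a virus with a scrambled hairpin, so every group carried a virus and a hairpin and no uninjected mice were included. Each group held 3 libraries, each from the hippocampus of 1 mouse, and the hairpin was not directed to microglia by any label. In bulk tissue, fewer cells of a type and less RNA per cell cannot be told apart, and the same holds for more cells and more RNA.

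Microglia survey the brain in a resting state that is marked by genes such as P2ry12, Tmem119 and Cx3cr1. Near amyloid, dying neurons or damaged myelin they pass to an activated state in which the lipid receptor TREM2 and its adaptor TYROBP signal, phagocytic and lysosomal genes are raised, and lipid handling genes such as Apoe and Lpl are induced. The same genes are not all private to microglia in the hippocampus: astrocytes are the main source of Apoe, neurons express Lpl, and Spp1 and Lgals3 are also made by macrophages at the borders of the brain.

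The promoters of the 10 genes were read for 3 short motifs of factors that are active in macrophages, as a description of their sequences. RefSeq promoters (GRCm38.p6, 250 bases before the start of transcription to 50 bases after it, from the C57BL/6J reference) were found for 8 of the 10 genes, with none for Tyrobp and Lpl. The motifs, searched on both strands, were the PU.1/ETS core GAGGAAG, the interferon regulatory factor (IRF) element GAAANNGAA and the E-box CACGTG. Some genes have several promoters (32851 promoters of 27025 genes in the table), and a gene was counted where any of its promoters held the motif. The PU.1/ETS core was present for 3 of these 8 genes (Trem2, Axl and Spp1) against 15.4% of the genes and 13.6% of the promoters in the table. The IRF element was present for 2 of 8 (Apoe and Spp1) against 9.76% of genes and 8.56% of promoters, and the E-box for 0 of 8 against 8.09% and 7.15%. Shown are 4 promoters, those of the 3 genes with the PU.1/ETS core and that of Cst7, which had the largest fitted difference in the B6 knockdown and none of the 3 motifs. They are written 5′ to 3′ on the strand of the gene, with motif matches in capitals. The PU.1/ETS core began 41 bases before the start in Trem2, 131 bases before it in Axl and 113 bases before it in Spp1, where the IRF element began at 156 bases before it.
Trem2 (chr17:48346151-48346450, plus strand): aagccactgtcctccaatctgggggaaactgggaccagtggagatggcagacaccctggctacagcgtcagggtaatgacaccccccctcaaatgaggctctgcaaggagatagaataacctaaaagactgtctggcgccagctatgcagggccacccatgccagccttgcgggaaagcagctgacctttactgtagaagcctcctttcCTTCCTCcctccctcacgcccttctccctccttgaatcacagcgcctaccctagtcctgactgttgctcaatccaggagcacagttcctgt
Axl (chr7:25788684-25788983, minus strand): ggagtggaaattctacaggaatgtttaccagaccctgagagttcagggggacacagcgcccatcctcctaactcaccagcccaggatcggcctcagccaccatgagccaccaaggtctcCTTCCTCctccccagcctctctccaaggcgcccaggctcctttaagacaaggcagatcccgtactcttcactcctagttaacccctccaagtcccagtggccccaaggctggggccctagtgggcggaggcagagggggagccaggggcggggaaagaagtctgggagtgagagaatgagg
Cst7 (chr2:150570165-150570464, plus strand): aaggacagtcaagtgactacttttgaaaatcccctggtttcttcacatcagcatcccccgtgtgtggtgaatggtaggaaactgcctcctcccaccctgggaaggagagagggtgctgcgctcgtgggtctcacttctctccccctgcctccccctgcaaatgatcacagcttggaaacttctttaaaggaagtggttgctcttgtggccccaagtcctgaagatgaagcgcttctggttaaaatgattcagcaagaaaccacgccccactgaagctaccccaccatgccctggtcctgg
Spp1 (chr5:104434861-104435160, plus strand): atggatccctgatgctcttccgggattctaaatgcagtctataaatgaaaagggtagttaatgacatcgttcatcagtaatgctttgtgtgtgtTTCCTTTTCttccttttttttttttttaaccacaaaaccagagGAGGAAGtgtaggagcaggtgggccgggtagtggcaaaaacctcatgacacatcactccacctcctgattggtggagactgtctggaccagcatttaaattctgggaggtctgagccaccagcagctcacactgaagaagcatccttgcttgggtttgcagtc
A match says that these letters are in the window and nothing about binding.

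The libraries held 18213084 to 39420219 expected counts in all, and levels are given as CPM after TMM scaling, that is, counts brought to a common library size, which can be compared between libraries for a gene but not between genes of different length. The targeted gene, Hp1bp3, stood at 294 to 310 CPM in B6 Ctrl and at 185, 182 and 259 CPM in B6 KD libraries 1 to 3. In D2 it stood at 215 to 234 CPM in Ctrl and at 177, 163 and 230 CPM in KD, so the library labelled D2 KD 3 lay within the range of the controls. The fitted log2 difference in Hp1bp3 was -0.54 ± 0.15 (SE) in B6 (adjusted p = 0.0760, edgeR) and -0.25 ± 0.15 in D2 (adjusted p = 1.00, edgeR). Choroid plexus markers, summed over 8 of 8 genes, ranged from 60.9 to 5206 CPM and were over 1000 CPM in 7 of the 12 libraries, spread over all 4 groups. Replicates of one group are separate mice, and every pair differed by more than counting noise.

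Knockdown in B6 was compared with B6 Ctrl to ask whether the activated microglia genes differ between the hairpin against Hp1bp3 and the scrambled hairpin. In this comparison 9 of the 10 genes had a higher estimate in KD, with a median log2 fold change of 1.20 against 0.00 over all genes tested, and none passed an adjusted p of 0.05 (0 of 10, edgeR quasi-likelihood test with Benjamini-Hochberg adjustment over 15853 genes; background 2.64% called, 1.76% called higher). At an unadjusted p under 0.05 there were 8 of the 10, against 20.6% of all genes. In 7 of the 10 all B6 KD libraries lay above all B6 Ctrl libraries, against 13.9% of all genes. DESeq2 called 6 of the 10 (Trem2, Cd68, Cst7, Itgax, Lgals3 and Axl) against 10.7% of all genes with an adjusted p from DESeq2 (5.78% called higher), and limma-voom called 0. The values of the single genes follow by role, with the receptor and its adaptor first.

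Trem2 (ENSMUSG00000023992, GRCm38 chr17:48346401-48354147, plus strand) encodes the receptor for lipids and lipoproteins on the microglial surface. Its level was 12.7, 15.1 and 11.8 CPM in B6 Ctrl libraries 1 to 3 and 39.4, 33.4 and 15.5 CPM in B6 KD libraries 1 to 3. The groups did not overlap, but B6 KD 3 lay only just above the highest control. The fitted log2 fold change was 1.16 ± 0.39 (SE; adjusted p = 0.123, edgeR), a 2.23-fold estimate. Tyrobp (ENSMUSG00000030579, GRCm38 chr7:30413760-30417585, plus strand) encodes DAP12, the adaptor through which TREM2 signals. Tyrobp was at 10.5, 14.0 and 11.5 CPM in B6 Ctrl and at 30.2, 28.6 and 17.3 CPM in B6 KD, again without overlap and with the third KD library lowest. The log2 fold change of Tyrobp was 1.08 ± 0.38 (adjusted p = 0.138, edgeR), within 1 SE of that of its receptor.

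Apoe (ENSMUSG00000002985, GRCm38 chr7:19696109-19699188, minus strand), the main lipoprotein of the brain and a ligand of TREM2, was at 1254, 1410 and 1131 CPM in B6 Ctrl. It was at 1770, 1947 and 1151 CPM in B6 KD, so that the third KD library lay inside the range of the controls. The log2 fold change of Apoe was 0.36 ± 0.24 (adjusted p = 0.419, edgeR). Axl (ENSMUSG00000002602, GRCm38 chr7:25757273-25788705, minus strand) encodes a TAM receptor tyrosine kinase that recognises dying cells through the bridging proteins GAS6 and protein S. Axl had the narrowest spread of the genes with a higher estimate, at 60.6, 65.4 and 58.0 CPM in B6 Ctrl against 108, 109 and 92.8 CPM in B6 KD. Its fold change was only 1.68, but its adjusted p was the smallest of the 10 (log2 0.75 ± 0.18, adjusted p = 0.0516, edgeR). Itgax (ENSMUSG00000030789, GRCm38 chr7:128129547-128150657, plus strand) encodes CD11c, the alpha chain of an integrin of dendritic cells and activated microglia. Itgax was at 0.539, 2.91 and 1.45 CPM in B6 Ctrl and at 10.1, 14.4 and 4.18 CPM in B6 KD. Its groups did not overlap, with a log2 fold change of 2.57 ± 0.90 (adjusted p = 0.138, edgeR).

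Cd68 (ENSMUSG00000018774, GRCm38 chr11:69664213-69666153, minus strand), a glycoprotein of lysosomes and a common stain for phagocytic cells, was at 7.71, 14.4 and 7.61 CPM in B6 Ctrl and at 30.2, 26.9 and 13.5 CPM in B6 KD. The second control and the third KD library overlapped, and the log2 fold change was 1.25 ± 0.44 (adjusted p = 0.135, edgeR). Cst7 (ENSMUSG00000068129, GRCm38 chr2:150570415-150578944, plus strand) encodes cystatin F, an inhibitor of lysosomal cathepsins that resting microglia hardly express. Cst7 was at 0.566, 1.45 and 0.636 CPM in B6 Ctrl and at 10.3, 12.3 and 2.44 CPM in B6 KD, the lowest of which still lay above every control. It had the largest estimate of the 10, a log2 fold change of 3.25 ± 0.80 or 9.54-fold (adjusted p = 0.0552, edgeR). The counts behind Cst7 were small, 21 to 38 in the 3 controls and 97 to 363 in the 3 KD libraries.

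Lgals3 (ENSMUSG00000050335, GRCm38 chr14:47367751-47386160, plus strand), which encodes the sugar-binding galectin-3 that gathers at damaged lysosomes, was at 0.755, 4.93 and 0.983 CPM in B6 Ctrl and at 15.2, 9.95 and 5.47 CPM in B6 KD. Spp1 (ENSMUSG00000029304, GRCm38 chr5:104435118-104441050, plus strand), which encodes the secreted phosphoprotein osteopontin, was at 5.23, 35.8 and 6.13 CPM in B6 Ctrl and at 65.9, 56.96 and 48.5 CPM in B6 KD. In both genes the second control stood apart from the other two yet stayed below every KD library. The log2 fold change was 2.22 ± 0.71 for Lgals3 (adjusted p = 0.107, edgeR) and 1.87 ± 0.68 for Spp1 (adjusted p = 0.150, edgeR). Without B6 Ctrl 2, the estimates were 3.52 for Lgals3 and 3.30 for Spp1 and both passed the test (adjusted p = 0.0440 and 0.0386, edgeR), with the remaining pair of controls assumed to vary as the other groups did. That control also held more choroid plexus RNA than the other two, at 2765 against 80.8 and 158 CPM summed over 8 markers. Its border macrophage markers summed to 21.9 CPM against 7.96 and 7.17 CPM over 7 of 7 genes, none of them at 0 in any library. The part of either in the levels of Lgals3 and Spp1 was not tested. Lpl (ENSMUSG00000015568, GRCm38 chr8:68880491-68907448, plus strand), the lipoprotein lipase, was the only one of the 10 with a lower estimate, at 45.9, 50.7 and 54.5 CPM in B6 Ctrl and 54.9, 40.6 and 37.9 CPM in B6 KD. The groups overlapped and the log2 fold change was -0.18 ± 0.22 (adjusted p = 0.686, edgeR).

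**Figure D1:**
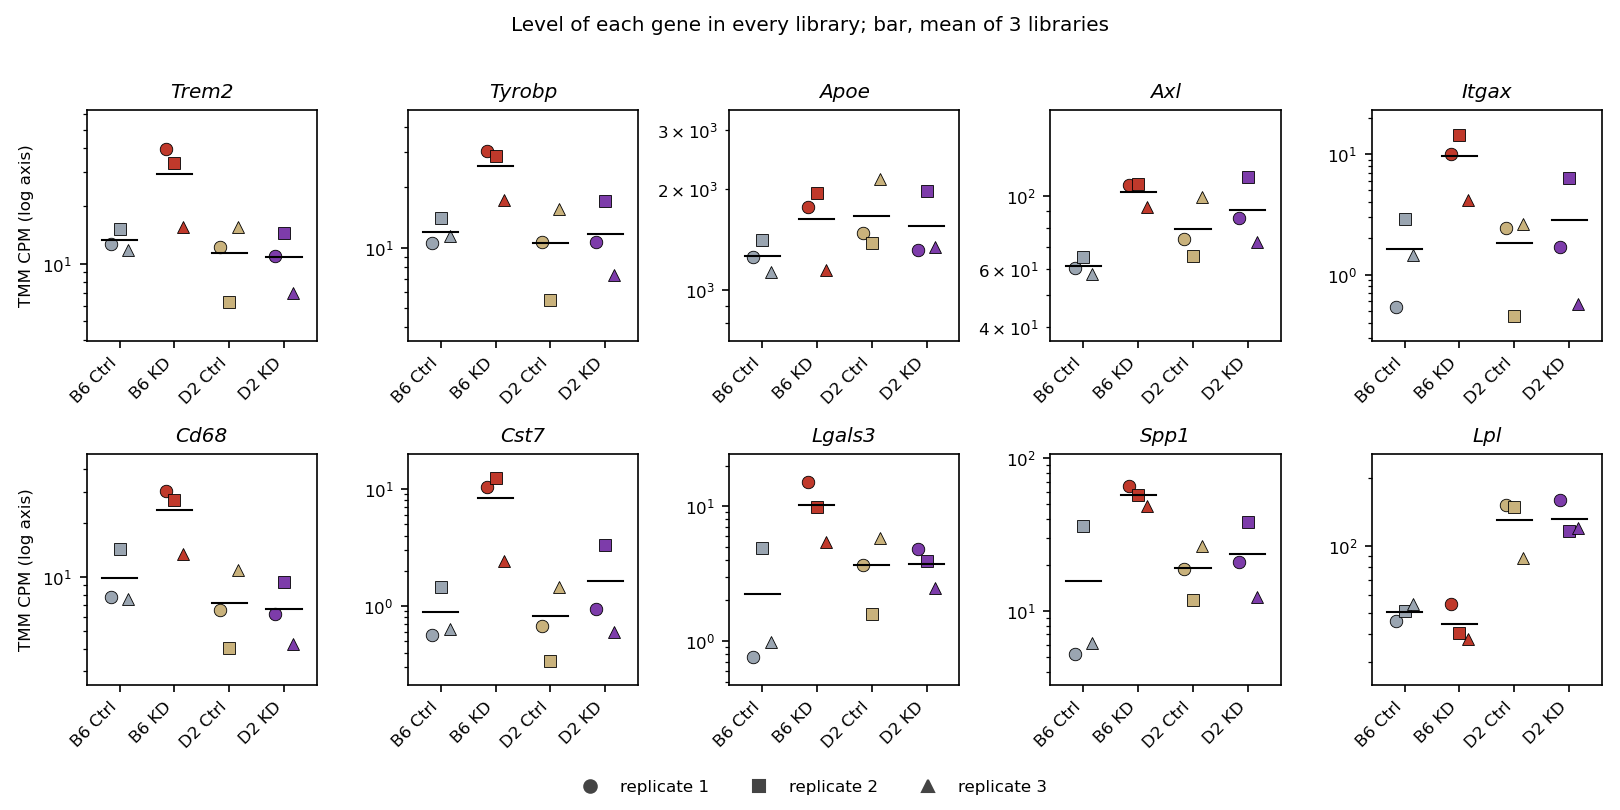
TMM-scaled CPM (log axis) of the 10 genes in each of the 12 libraries, by group; symbols mark the replicate and the bar is the mean of 3 libraries. The B6 KD libraries lie above all B6 Ctrl libraries in 7 of the 10 genes, B6 KD 3 is the lowest of its group in 10 of 10, and Lpl separates by strain.

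Within the B6 KD group, B6 KD 3 was the lowest of the 3 in 10 of the 10 genes, and it was also the KD library in which Hp1bp3 was highest, at 259 CPM. Without it, 3 of the 10 genes passed the test in B6 (Trem2, Cst7 and Axl, at adjusted p = 0.0444, 0.0258 and 0.0462, edgeR), and 790 genes did so in all against 418 with it. In B6 Ctrl, library 2 was the highest in 9 of the 10 genes. Leaving out B6 Ctrl 2, D2 KD 2 or D2 KD 3 gave 2 calls among the 10, leaving out D2 Ctrl 3 gave 1, and leaving out any library but these and B6 KD 3 gave 0. Over all 15853 genes, 237 were called without B6 Ctrl 2, 478 without D2 KD 2, 673 without D2 KD 3 and 593 without D2 Ctrl 3. Without B6 Ctrl 1, B6 Ctrl 3, B6 KD 1, B6 KD 2 or D2 Ctrl 1, 0 of all genes were called, so a result of 0 there says nothing about the 10.

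Other genes of the same processes were taken from 4 lists. Of the partners of TREM2 signalling, 7 of 8 were tested (Hcst was too low), and 7 of 7 had a higher estimate in B6 KD with a median log2 fold change of 0.73. None of them passed the test (0 of 7, with 6 at an unadjusted p under 0.05 against 20.6% of all genes), and in 5 of 7 all KD libraries lay above all controls, against 13.9%. The smallest p-values belonged to Ptpn6, a phosphatase that dampens immune receptors (log2 1.52 ± 0.38, adjusted p = 0.0573, edgeR), and Adam17, a protease that sheds TREM2 (0.47 ± 0.12, adjusted p = 0.0575). Plcg2, the phospholipase downstream of TREM2, followed at 0.73 ± 0.22 and Inpp5d, the lipid phosphatase SHIP1, at 0.86 ± 0.26.

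Among other disease-associated microglia genes, 17 of 18 were tested (Lilrb4a is not a row of the table), 4 rose and 1 fell in B6 KD (against 1.76% of all genes called higher and 2.64% called in either direction), and the median log2 fold change was 1.28. Cd9, a tetraspanin, was at 41.8, 63.2 and 47.7 CPM in B6 Ctrl and at 125, 126 and 172 CPM in B6 KD, and rose by 1.47 ± 0.28 on the log2 scale (adjusted p = 0.0362, edgeR). Unlike the 10 genes, Cd9 was highest in B6 KD 3. The lysosomal protease Ctsl, cathepsin L, rose by 0.90 ± 0.18 (adjusted p = 0.0399, edgeR), and the cathepsin D gene Ctsd, named after its value was seen, rose by 1.11 ± 0.26 (adjusted p = 0.0488, edgeR). B2m, the light chain of MHC class I and an interferon-inducible gene, was at 98.0, 96.1 and 72.1 CPM in B6 Ctrl and at 473, 566 and 215 CPM in B6 KD, and rose by 2.23 ± 0.49 (adjusted p = 0.0447, edgeR). Ank, a transporter of pyrophosphate, fell by 0.37 on the log2 scale, with an SE of 0.08 (adjusted p = 0.0486, edgeR). These calls lay close to the threshold, and leaving out 1 library at a time, each of the 5 was lost in at least 6 of 12 fits. Without B6 Ctrl 1, B6 Ctrl 3, B6 KD 1, B6 KD 2 or D2 Ctrl 1, 0 of all genes were called. A loss in those fits is thus not particular to these genes.

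Of the TAM receptors, their ligands and integrin partners, 8 of 8 were tested and 2 rose in B6 KD (against 1.76% of all genes). The estimate was higher in B6 KD for 6 of the 8, with a median log2 fold change of 1.08 and a range from -0.22 to 2.70. Mean levels of the TAM receptor genes Mertk and Tyro3 were lower in B6 KD, and their groups overlapped. Mertk was at 45.05 to 51.05 CPM in B6 Ctrl and 37.19 to 49.46 CPM in B6 KD. Tyro3 was at 132 to 163 CPM in B6 Ctrl and 112 to 134 CPM in B6 KD. Itgam, the CD11b chain of the complement receptor, was at 30.8, 29.0 and 28.9 CPM in B6 Ctrl and at 71.2, 74.7 and 43.3 CPM in B6 KD, a log2 fold change of 1.09 ± 0.23 (adjusted p = 0.0420, edgeR). Pros1, which encodes protein S, a ligand that bridges dying cells to TAM receptors, was at 16.1, 25.8 and 18.2 CPM in B6 Ctrl and at 38.3, 38.3 and 48.8 CPM in B6 KD (1.07 ± 0.24, adjusted p = 0.0463, edgeR). Each call held on leaving out 4 of the 12 libraries and was lost on leaving out any other, including the fits in which no gene at all was called. Cd44, a receptor for osteopontin and hyaluronan, had an estimate of 2.70 ± 0.71 and Itgb2, the beta chain shared by CD11b and CD11c, one of 1.35 ± 0.38, and neither passed (adjusted p = 0.0670 and 0.0772, edgeR). Cd44 was at 8.01, 11.2 and 9.77 CPM in B6 Ctrl and at 18.7, 36.1 and 133 CPM in B6 KD, and its estimate was 1.47 without B6 KD 3. Of the partners in lipid handling, 7 of 8 were tested (Gpihbp1 was too low) and 0 of 7 passed in B6, with 3 at an unadjusted p under 0.05 (against 20.6% of all genes) and a median of 0.12. Their smallest p belonged to the cholesterol exporter Abca1 (1.26 ± 0.33, adjusted p = 0.0646, edgeR), followed by the lysosomal lipase Lipa (0.40 ± 0.13), the apolipoprotein gene Apoc1 (1.02 ± 0.42) and Lcat, which esterifies cholesterol (-0.35 ± 0.29).

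In D2 the same comparison gave no call among the 10 genes (0 of 10, edgeR; background 0% called) and none at an unadjusted p under 0.05, against 2.85% of all genes. The groups overlapped in 10 of 10, where 2.93% of all genes had every KD library above every control. The median log2 fold change was 0.08 against 0.00 over all genes tested, and the adjusted p was 1.00 for each. DESeq2 and limma-voom also called 0 of the 10. Trem2 was at 12.2, 6.34 and 15.6 CPM in D2 Ctrl libraries 1 to 3 and at 10.9, 14.4 and 7.02 CPM in D2 KD (log2 -0.08 ± 0.39). Tyrobp was at 10.6, 5.49 and 15.5 CPM in D2 Ctrl and at 10.7, 17.0 and 7.34 CPM in D2 KD (0.14 ± 0.38). The receptor and its adaptor thus varied by more than 2-fold within each D2 group, and their intervals admit differences in either direction.

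Cst7 had the largest D2 estimate, at 0.681, 0.340 and 1.44 CPM in D2 Ctrl and 0.943, 3.34 and 0.601 CPM in D2 KD (0.96 ± 0.79). Itgax was at 2.45, 0.453 and 2.63 CPM in D2 Ctrl and at 1.71, 6.29 and 0.569 CPM in D2 KD (0.61 ± 0.88). Spp1 was at 18.8, 11.7 and 26.6 CPM in D2 Ctrl and at 20.9, 37.8 and 12.3 CPM in D2 KD (0.31 ± 0.66). In these 3 genes a single library, D2 KD 2, lay above all other D2 libraries, and without it the estimates were -0.13, -0.74 and -0.21. D2 KD 2 had the lowest Hp1bp3 level of all 12 libraries, at 163 CPM, and the lowest choroid plexus sum, at 60.9 CPM.

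The other 5 genes gave smaller D2 estimates. Axl was at 73.9, 65.8 and 99.6 CPM in D2 Ctrl and at 85.6, 114 and 72.6 CPM in D2 KD (log2 0.19 ± 0.18). Apoe was at 1478, 1379 and 2143 CPM in D2 Ctrl and at 1318, 1979 and 1347 CPM in D2 KD (-0.11 ± 0.24). Both had one high library in each group, replicate 3 of Ctrl and replicate 2 of KD. Cd68 was at 6.53, 4.02 and 11.0 CPM in D2 Ctrl and at 6.26, 9.44 and 4.27 CPM in D2 KD (-0.12 ± 0.44). Lgals3 was at 3.65, 1.58 and 5.82 CPM in D2 Ctrl and at 4.79, 3.92 and 2.47 CPM in D2 KD (-0.00 ± 0.64). Lpl, at 152, 148 and 88.1 CPM in D2 Ctrl and 160, 116 and 119 CPM in D2 KD, had an estimate of 0.03 ± 0.21. As in B6, the D2 libraries held a common order: D2 Ctrl 3 was the highest control in 9 of the 10 genes, D2 Ctrl 2 the lowest in 9, D2 KD 2 the highest KD library in 8 and D2 KD 3 the lowest in 8. Without D2 KD 3, whose Hp1bp3 level lay within the range of the controls, 0 of the 10 passed in D2. None of the tested genes of the 4 partner lists passed in D2 (0 of 39 in all, edgeR, against 0% of all genes). At an unadjusted p under 0.05 there was 1 of the 39, against 2.85% of all genes.

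**Figure D2:**
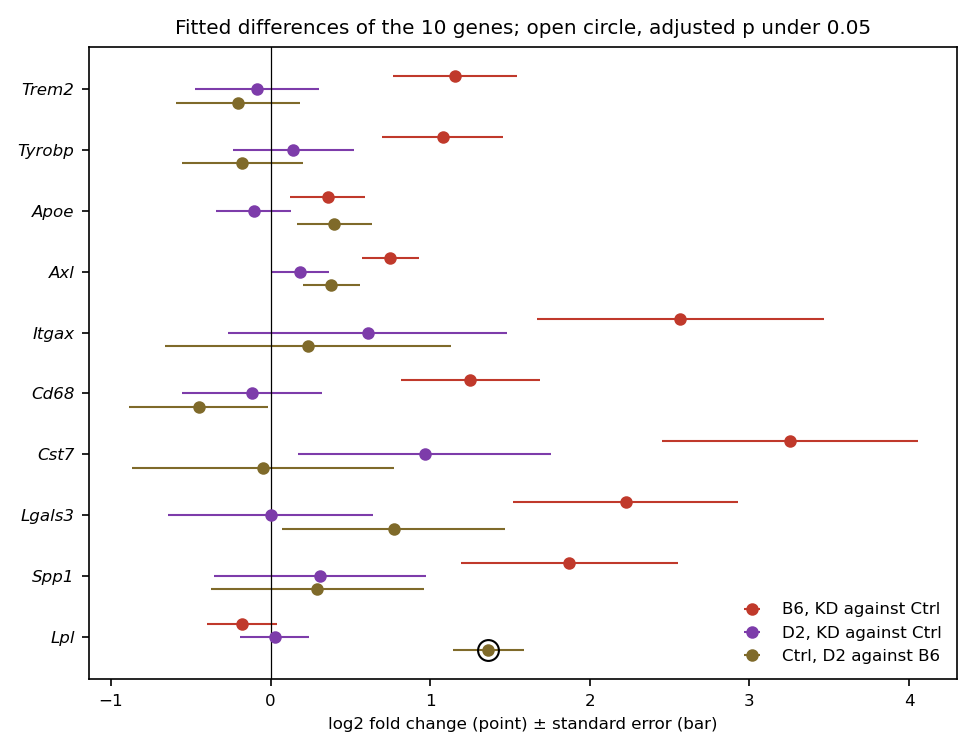
Fitted log2 fold change (point) and its standard error (bar) of the 10 genes for the knockdown within B6 (red), the knockdown within D2 (purple) and the strain difference of the controls (D2 minus B6, brown); an open circle marks an adjusted p under 0.05 (edgeR). Only the strain difference of Lpl carries a circle, and 9 of 10 B6 estimates lie above 0.

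Averaged over the strains, the knockdown gave 0 calls among the 10 (edgeR; background 0%), with 6 at an unadjusted p under 0.05 against 19.2% of all genes. Cst7 and Axl had the smallest adjusted p, at log2 2.11 ± 0.56 (0.0877) and 0.47 ± 0.13 (0.0903), and DESeq2 called both, with 7.83% of all genes called. Without D2 KD 3, both passed in edgeR as well, at adjusted p = 0.0428 and 0.0373, and 799 genes passed in all against 0 with it.

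Whether the knockdown difference itself differed between strains was tested as the D2 difference minus the B6 difference. The estimate was negative for 9 of the 10 genes, with a median of -1.30 on the log2 scale against 0.00 over all genes, and 0 of the 10 passed (edgeR; background 0%). At an unadjusted p under 0.05 there were 4 (Lgals3, Trem2, Axl and Cd68) against 5.91% of all genes. The values were -2.22 ± 0.98 for Lgals3, -1.24 ± 0.55 for Trem2, -0.56 ± 0.25 for Axl and -1.37 ± 0.62 for Cd68, all at an adjusted p of 0.834 or above. DESeq2 and limma-voom also called 0 of the 10. A difference between the strains in the response of these genes was therefore not shown.

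The strains were then compared in the absence of knockdown, D2 Ctrl against B6 Ctrl. Of the 10 genes 1 passed the test, Lpl, against a background of 14.0% called and 5.23% called higher. Lpl hydrolyses the triglycerides of lipoproteins and, besides microglia, is expressed by hippocampal neurons. It was higher by 1.36 ± 0.22 on the log2 scale in D2 Ctrl (88.1 to 152 CPM) than in B6 Ctrl (45.9 to 54.5 CPM), a 2.58-fold difference (adjusted p = 0.00132, edgeR), and the 6 D2 libraries lay above the 6 B6 libraries. The call held in 9 of 9 alternative fits and whichever of the 12 libraries was left out. The study aligned reads of each strain to the genome of that strain, and the share of genes with a count that is not whole was 19.1% to 21.2% in B6 libraries and 9.90% to 11.7% in D2 libraries, so a strain difference and a difference between references cannot be told apart here. Lpl and Axl were the 2 of 10 genes whose D2 controls all lay above the B6 controls, against 13.9% of all genes, and Axl did not pass (0.38 ± 0.18, adjusted p = 0.238, edgeR). The other 8 estimates lay between -0.45 (Cd68) and 0.77 (Lgals3), and single libraries moved them widely. Without B6 Ctrl 2 the estimate was 2.09 for Lgals3 (adjusted p = 0.0511, edgeR) and -0.091 for Cd68, and without D2 Ctrl 3 it was 0.29 for Lgals3 and -0.89 for Cd68. Leaving out D2 Ctrl 3 also took Apoe from 0.40 to 0.18 and Axl from 0.38 to 0.19.

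Among the partner genes, Gpnmb and Abcg1 passed between the strains (2 of 39 tested, against 14.0% of all genes). Gpnmb, a glycoprotein of activated microglia and pigment cells of which DBA/2J mice are known to carry a nonsense allele, was at 6.34, 32.9 and 9.72 CPM in B6 Ctrl and at 1.15, 0.396 and 1.37 CPM in D2 Ctrl. Its log2 difference was -3.99 ± 0.69 (adjusted p = 0.00207, edgeR). Abcg1, which exports cholesterol to lipoproteins, was higher by 0.45 ± 0.13 in D2 (adjusted p = 0.0489, edgeR), and the call held on leaving out 2 of the 12 libraries and was lost on leaving out any other.

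The mean level was highest in B6 KD for 8 of the 10 genes, in D2 Ctrl for Apoe and in D2 KD for Lpl. In Trem2, Tyrobp, Lgals3 and Spp1 the lowest B6 KD library also lay above the next group in the order, which was B6 Ctrl for the first pair and D2 KD for the second. In Axl, Cd68, Cst7 and Itgax the B6 KD range overlapped that of the next group. The remaining neighbours in the order overlapped except D2 Ctrl above B6 Ctrl, in Axl and in Lpl. The order was set from these same values and no share over all genes was computed for it. It therefore describes the 10 genes and does not show that such gaps are unusual.

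Over the 12 libraries, with the mean of each strain removed, the 10 genes formed 45 pairs with a median Pearson's r of 0.86, and 31 pairs were above 0.8. The closest pairs were Trem2 with Cd68 (r = 0.963), Trem2 with Tyrobp (r = 0.961) and Tyrobp with Cd68 (r = 0.957). Itgax with Tyrobp (r = 0.949), Cst7 with Itgax (r = 0.944) and Axl with Tyrobp (r = 0.943) followed. Spp1 was nearest to Lgals3 (r = 0.938) and Apoe to Cd68 (r = 0.880). Lpl was negative with each of the other 9, from -0.189 with Lgals3 to -0.458 with Apoe. The libraries differed in tissue makeup and depth, and only the strain mean was removed, so the difference between KD and Ctrl remains in these values. They describe the libraries and were not tested.

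**Figure D3:**
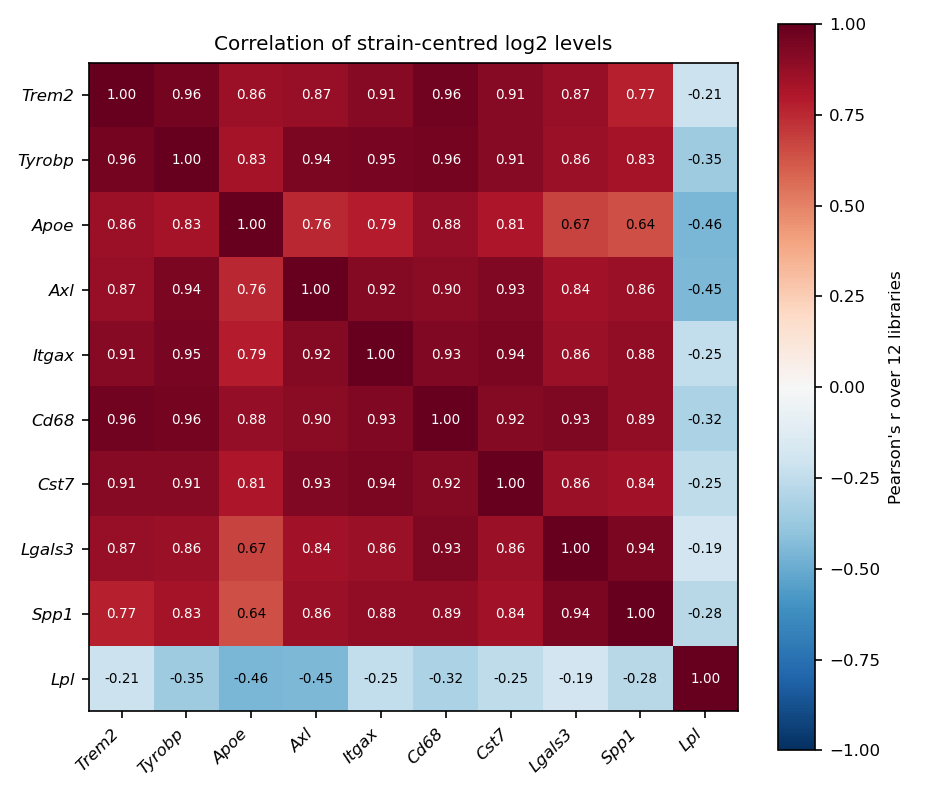
Pearson's r of strain-centred log2(CPM + 1) between the 10 genes over 12 libraries; red marks positive and blue negative values. The other 9 genes are positive with each other, from 0.641 (Apoe with Spp1) to 0.963 (Trem2 with Cd68), and Lpl is negative with all 9.

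Over all tested genes, the patterns nearest to Trem2 were those of Slc11a1 (r = 0.982), Csf1r (0.981) and Laptm5 (0.973), and those nearest to Tyrobp were Hk3 (0.983), C4b (0.978) and Slc11a1 (0.978). Slc11a1 is a metal transporter of phagosomes and Csf1r the growth factor receptor that microglia need to survive. For Itgax they were Plau (0.981), Clec7a (0.981) and Bcl2a1b (0.977). Clec7a, the beta-glucan receptor dectin-1, is itself a gene of the disease-associated state. For Cst7 they were B430306N03Rik (0.991), Lcn2 (0.991) and As3mt (0.988), and for Axl Slamf9 (0.988), C1qb (0.986) and Tlr2 (0.983). For Cd68 they were Dpagt1 (0.971), C1s (0.969) and C3 (0.969). For Lgals3 they were Gpnmb (0.976), Bdh2 (0.955) and Asf1b (0.950), for Spp1 Serping1 (0.981), Col4a6 (0.969) and Srgn (0.964), and for Apoe Itm2b (0.988), Ctso (0.958) and Snx5 (0.955). For Lpl they were Armc8 (0.928), Elp4 (0.890) and Inpp4b (0.887), none of them among the microglial lists used here.

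Markers of resting microglia were read beside the 10 genes. All 12 of 12 homeostatic genes had a higher estimate in B6 KD, and their median log2 fold change was 0.61. In 7 of them all B6 KD libraries lay above all B6 Ctrl libraries, against 13.9% of all genes. The groups overlapped in the other 5, P2ry12 among them (22.9 to 42.4 CPM in B6 KD, 28.6 to 35.5 CPM in B6 Ctrl). Of the 12, 1 passed (Olfml3, 1.05 ± 0.18, adjusted p = 0.0344, edgeR), against 1.76% of all genes called higher. Their summed level was 460 to 518 CPM in B6 Ctrl, 592 to 887 CPM in B6 KD, 439 to 634 CPM in D2 Ctrl and 428 to 628 CPM in D2 KD, with none at 0 in any library. B6 KD 3 was the lowest of its group here too, at 592 CPM. Each of the 10 genes was therefore also expressed relative to the mean log2 level of the 12 homeostatic genes in the same library, as a description without a test.

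On this relative scale the mean B6 KD level exceeded that of B6 Ctrl by 1.75 for Spp1, 1.58 for Cst7, 1.43 for Itgax and 1.39 for Lgals3 (log2 units, 3 libraries a group). The differences were 0.61 for Cd68, 0.47 for Trem2, 0.45 for Tyrobp and 0.20 for Axl. They were -0.21 for Apoe and -0.73 for Lpl. The groups did not overlap for Spp1, Cst7, Itgax and Tyrobp, with KD above, and for Lpl, with KD below. The relative scale was computed for the 10 genes only, so it has no share over all genes in either strain. On the CPM scale in B6, 13.9% of all genes had KD above without overlap and 14.0% had KD below. For Spp1 the gap was narrow, since B6 Ctrl 2 stood at 0.25, just under the KD libraries at 0.36, 0.28 and 0.51, while the other controls stood at -2.36 and -1.99. The relative level of Trem2 was -1.22, -0.94 and -1.15 in B6 Ctrl and -0.36, -0.47 and -1.08 in B6 KD, so the third KD library lay among the controls. In D2 the relative differences ran from -0.02 (Apoe) to 0.52 (Cst7), and only Axl had all KD libraries above the controls (difference 0.27). A pseudocount of 1 CPM shrinks differences of low genes: that of Cst7 in B6 was 2.36 with a pseudocount of 0.1 and 0.61 with one of 5. When the homeostatic score entered the edgeR fit as a covariate, the B6 estimates were -0.25 for Trem2, -0.10 for Tyrobp, -0.40 for Apoe and -0.16 for Cd68. With that covariate the estimate of Spp1 was 0.84, of Lgals3 0.74, of Cst7 0.51, of Axl 0.25 and of Itgax 0.20, and 0 of the 10 passed. The 7 partner genes called in B6 all lost the call with this covariate, and also with total count or the choroid plexus score as the covariate. Over all genes tested, 1 was called in B6 with the homeostatic score and 0 with total count or the choroid plexus score. The absence of calls in these fits is thus not particular to the 10 genes or to the 7 partners. With the homeostatic score the estimates were 0.64 for B2m, 0.39 for Ctsd, 0.42 for Ctsl, 0.32 for Itgam, 0.35 for Ptpn6, 0.33 for Abca1, 0.15 for Plcg2 and 0.016 for Itgb2, while those of Cd9 (1.26), Pros1 (0.84), Ank (-0.42) and Cd44 (2.98) moved less.

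**Figure D4:**
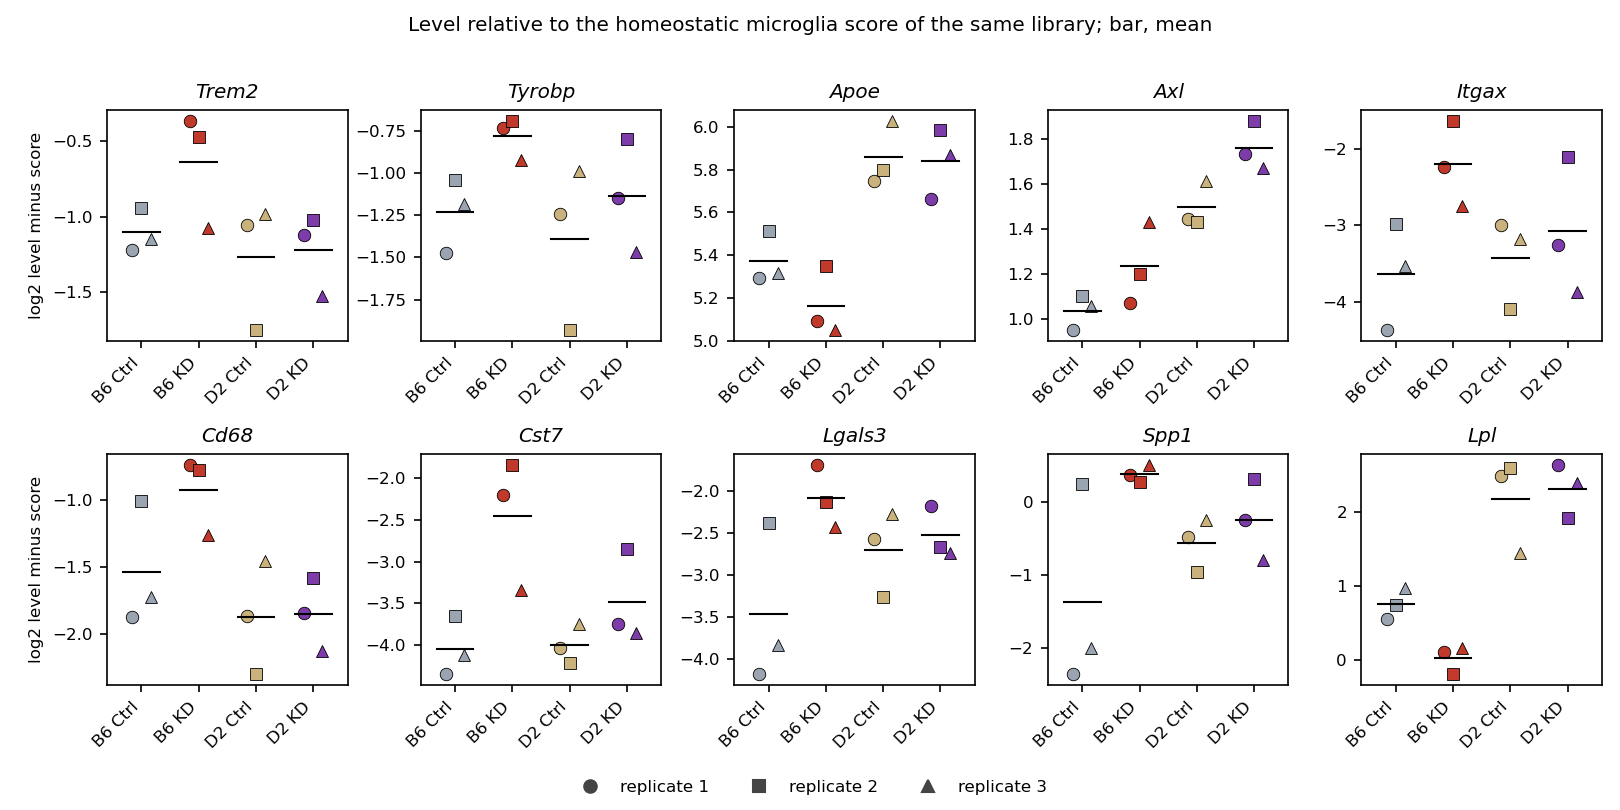
Log2(CPM + 1) of each of the 10 genes minus the mean log2(CPM + 1) of 12 homeostatic microglia genes in the same library, by group; symbols mark the replicate and the bar is the mean. Spp1, Cst7, Itgax and Tyrobp lie higher in every B6 KD library than in any B6 Ctrl library, and Lpl lies lower. No share over all genes was computed on this scale.

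Markers of other cell types and of the interferon response were read in the same libraries. Blood monocyte and neutrophil markers (5 of 7 present in the table) summed to 0.378 to 3.52 CPM in B6 Ctrl and 2.60 to 17.5 CPM in B6 KD, and to 0.960 to 1.70 CPM in D2 Ctrl and 1.80 to 5.26 CPM in D2 KD. Of the 5, 1 passed in B6 (Plac8, 4.30 ± 0.95, adjusted p = 0.0449, edgeR), against 1.76% of all genes called higher. Ly6c2 was at 0 in 1 D2 Ctrl library. Border macrophage markers summed to 7.17 to 21.9 CPM in B6 Ctrl, 14.2 to 23.7 CPM in B6 KD, 9.28 to 12.6 CPM in D2 Ctrl and 11.1 to 18.1 CPM in D2 KD. In B6, 0 of these 7 passed, against 2.64% of all genes. Interferon response genes showed the widest gap, at 60.4 to 71.9 CPM in B6 Ctrl and 340 to 982 CPM in B6 KD. Of these genes 8 of 8 rose in B6 KD, against 1.76% of all genes called higher. In D2 they summed to 67.8 to 174 CPM in Ctrl and 86.6 to 364 CPM in KD, highest in D2 KD 2 and, among the controls, in D2 Ctrl 3, the same libraries in which most of the 10 genes were highest. The part of these cells and of the interferon response in the levels of the 10 genes was not tested.

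Dendritic cell markers, relevant to Itgax, summed to 25.8 to 30.8 CPM in B6 Ctrl and 25.7 to 26.3 CPM in B6 KD, and 0 of 5 passed. Most of this sum came from Flt3 and Zbtb46, with means of 15.7 and 11.3 CPM in B6 Ctrl. Xcr1, Clec9a and Cd209a were low there, with means of 0.548, 0.694 and 0.379 CPM. The part of dendritic cells in the level of Itgax was not tested. Astrocyte markers, relevant to Apoe, summed to 5302 to 6119 CPM in B6 Ctrl and 5804 to 7721 CPM in B6 KD, and 0 of 8 passed, with 4 at an unadjusted p under 0.05. That sum is mostly other genes than Gfap, the filament protein of reactive astrocytes, which was singled out after its values were seen. Of the 8 genes 5 had a higher estimate in B6 KD, with a median log2 fold change of 0.11 and estimates from -0.38 to 1.70. Mean levels were lower in B6 KD than in B6 Ctrl for Aldoc (586 against 762 CPM), S100b (84.0 against 92.4 CPM) and Slc1a2 (2839 against 3168 CPM). Gfap was at 555 to 693 CPM in B6 Ctrl and at 1151 to 2603 CPM in B6 KD without overlap (log2 1.70 ± 0.52, adjusted p = 0.0981, edgeR), and at 432 to 2204 CPM in D2 Ctrl and 706 to 1531 CPM in D2 KD (0.02 ± 0.51, adjusted p = 1.00, edgeR). The part of astrocytes in the levels of the 10 genes was not tested. Neuron (0 of 7), oligodendrocyte (0 of 5), endothelial (0 of 5) and choroid plexus (0 of 8) markers gave no call in B6 either. As 2.64% of all genes were called in B6, 0 calls in a list this short do not show an unchanged cell type. The same holds for the dendritic cell and astrocyte lists. Choroid plexus markers summed to 154 CPM in B6 KD 1, under the 4243 and 5122 CPM of the other two KD libraries, and B6 KD 1 was the highest of the 3 in 6 of the 10 genes (Trem2, Tyrobp, Cd68, Lgals3, Spp1 and Lpl).

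**Figure D5:**
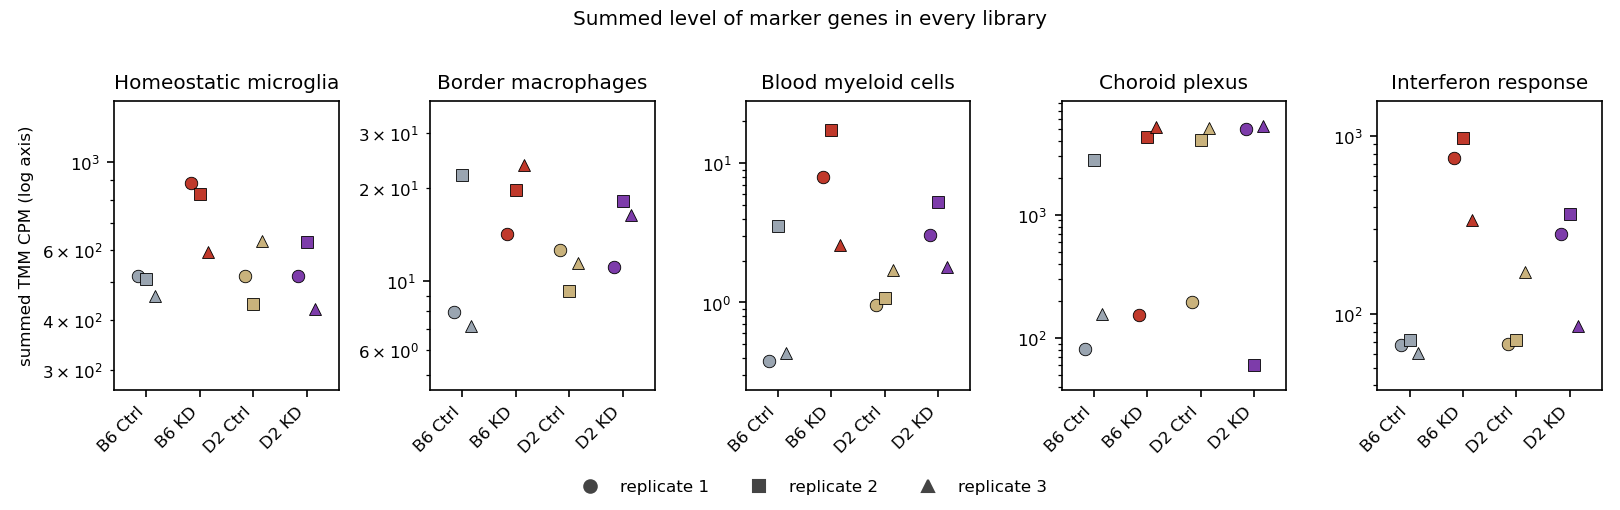
Summed TMM-scaled CPM (log axis) of 5 marker lists in each of the 12 libraries, by group; symbols mark the replicate. The sums of homeostatic microglia genes and of interferon response genes lie higher in every B6 KD library than in any B6 Ctrl library. Choroid plexus markers split every group.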

How the data were processed

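Hippocampal mRNA of 12 mice was sequenced as paired-end reads, 3 libraries in each of 4 groups taken from the labels. The deposited table holds expected counts per gene, which the authors made with RSEM 1.2.12 and Bowtie2 2.2.0 after trimming, each strain against its own genome. The builds named in the submitters' processing notes are GRCm38 and mm10, and the annotation release is not given in the sources used here. A second deposited table, of counts normalized by the authors with DESeq2, was not used.

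Expected counts were rounded to whole numbers, 27 symbols that had been turned into dates were restored, and 15853 of 22236 genes passed filterByExpr over the 4 groups. Counts were scaled by TMM and fitted with edgeR 4.0.16 (quasi-likelihood, robust, 1 mean per group, all 12 libraries) in R 4.3.3. Tests were two-sided, p-values were adjusted by Benjamini-Hochberg over all genes tested, and a gene was called at an adjusted p under 0.05. The standard error of a log2 fold change was taken from the estimate and its F statistic and is approximate. The fit was tested on simulated counts in which every gene had the same spread and libraries of a group differed only in depth. That test does not show how the fit performs at the spread of these libraries. Groups were called not overlapping when every library of one exceeded every library of the other in CPM. Relative levels and correlations used log2(CPM + 1).

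Alternatives were DESeq2 1.42.0, limma-voom 3.58.1, DESeq2 size factors, no filter on low counts, other quasi-likelihood settings, covariates and leaving out each library. Of each partner list the 4 genes with the smallest p in B6 were named, with those called between the strains, and for each of the 10 genes the 3 nearest patterns. The 10 genes and the lists were chosen with earlier results of these data known. Gene positions are from GENCODE M21 (GRCm38).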

Additional observations from a re-analysis of the deposited data

How the results depend on the processing

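With 3 libraries a group, and genes such as Cst7 and Itgax below 3 CPM in most libraries, moderate differences could be missed. Of the 10 genes, 0 were called in B6 by edgeR, 6 by DESeq2, 2 by the newer quasi-likelihood method, 1 without robust estimation and 0 to 3 when 1 library was left out. Averaged over strains, DESeq2 called 2 and leaving out a library 0 to 2. Between the strains 1 was called, 3 with the homeostatic microglia score as a covariate (Apoe, Axl and Lpl) and 1 to 2 without 1 library. Over all genes, 2216 were called between the strains, 2536 with that score and 1660 to 2446 without 1 library. None of the 10 was called for D2 KD or for the interaction in any of these fits.

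Over all genes, 418 were called in B6 against 1688 by DESeq2, 0 with total count or the choroid plexus score as a covariate, 1 with the homeostatic score and 0 to 790 without 1 library (0 without B6 Ctrl 1 or 3, B6 KD 1 or 2, or D2 Ctrl 1, 45 without D2 Ctrl 2, 124 without D2 KD 1, 237 without B6 Ctrl 2, 673 without D2 KD 3, 790 without B6 KD 3). Averaged over strains 0 were called, against 1241 by DESeq2, 15 by the newer quasi-likelihood method and 0 to 799 without 1 library (799 without D2 KD 3, 400 without B6 KD 3, 326 without D2 Ctrl 3). In D2 0 were called, 1 by DESeq2 and 0 to 1 without 1 library, and for the interaction 0, 11 by DESeq2.

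With the homeostatic score as a covariate, the sign turned in B6 for Trem2 (-0.25), Tyrobp (-0.10), Apoe (-0.40), Cd68 (-0.16) and Inpp5d (-0.093). It turned in D2 for Trem2 (0.14), Apoe (0.013), Cd68 (0.12) and Lgals3 (0.34), and averaged over strains for Trem2 (-0.056), Apoe (-0.19) and Cd68 (-0.019). It also turned for the interaction in Trem2 (0.38), Tyrobp (0.43), Apoe (0.41), Cd68 (0.28), Cst7 (0.73), Itgax (0.47), Axl (0.016) and Hp1bp3 (-0.12). This covariate is itself a measure of microglial RNA, and 1 of its 12 genes, Fcrls, differed between the strains (-2.26, adjusted p = 0.000152, edgeR). Lgals3 in D2, at 0.00, was 0.011 by DESeq2, 0.049 by limma-voom, 0.18 with total count and 0.024 with the choroid plexus score. Cst7 between the strains was 0.038 by the newer method, 0.13 with the choroid plexus score and 0.21 with the homeostatic score. The cause of these changes was not tested.

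Leaving out 1 library turned the sign of D2 KD estimates, with ranges of -0.36 to 0.21 for Trem2, -0.23 to 0.52 for Tyrobp, -0.32 to 0.12 for Apoe, -0.46 to 0.32 for Cd68, -0.13 to 1.62 for Cst7, -0.74 to 1.09 for Itgax, -0.35 to 0.48 for Lgals3, -0.19 to 0.15 for Lpl, -0.013 to 0.38 for Axl and -0.21 to 0.63 for Spp1. Between the strains the ranges were -0.49 to 0.076 for Trem2, -0.56 to 0.12 for Tyrobp, -0.70 to 0.48 for Cst7, -0.19 to 0.93 for Itgax and -0.12 to 1.74 for Spp1, and for the interaction -0.0095 to 0.40 for Lpl. Spp1 passed between the strains without B6 Ctrl 2 (adjusted p = 0.0358, edgeR). No sign of a B6 KD estimate of the 10 genes turned when a library was left out. No paired analysis was possible because the labels give no replicate numbers that groups share.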
